A study of Rattus norvegicus with 35 samples.

Results

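The lowest of 5 oral doses of BTBPE, 0.07 mg/kg, was compared with its vehicle in the liver of male rats. The comparison held 12 of the 35 arrays in the series, 6 from rats given 0.07 mg/kg and 6 from rats given vehicle alone, and the groups were taken from the sample labels without any measured value. No transcript passed the test between the groups: of 31042 probe sets, 0 had an adjusted p-value under 0.05 in limma's moderated test (0% called). The description below therefore gives levels, sizes of difference and their intervals for the genes that liver usually uses to answer a foreign compound, and for the genes that stood furthest from vehicle.

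Plastics are made less flammable with brominated additives, and BTBPE (1,2-bis(2,4,6-tribromophenoxy)ethane) is one of them. Dosed rats received 0.07 mg/kg of it by gavage in corn oil for 5 consecutive days, and vehicle rats received the same volume of corn oil, 5 ml/kg body weight, with no BTBPE. All were male Harlan Sprague Dawley rats that were 7 weeks old at the start, ate NTP-2000 diet and gave left-lobe liver RNA on the day after the last dose. The other 23 arrays came from rats given 0.69, 6.88 or 680 mg/kg (6 arrays each) or 68 mg/kg (5 arrays) in the same way. The labels do not state in words that each array is a separate animal. Each is counted here as 1 rat, and the p-values measure the spread between these samples.

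The liver meets a foreign compound through a small set of ligand-activated transcription factors. CAR and PXR are nuclear receptors that raise transcription of Cyp2b and Cyp3a enzymes, conjugating enzymes and transporters. AhR, which binds flat halogenated aromatics such as dioxins, drives Cyp1a1 and Cyp1a2. NRF2 answers electrophiles and oxidants by raising quinone reductase and glutathione synthesis, and PPAR-alpha, the receptor behind peroxisome proliferation in rodents, raises Cyp4a enzymes and fatty acid oxidation. Brominated aromatics are commonly screened for activity at these receptors and for effects on thyroid hormone action.

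The arrays were alike in technical terms. Over all probe sets, Pearson's r between arrays was 0.992 to 0.995 within 0.07 mg/kg, 0.994 to 0.996 within vehicle and 0.993 to 0.996 between the groups. The difference between the 3 prime and 5 prime beta-actin control probe sets, a measure of RNA degradation, averaged 1.17 ± 0.07 (log2, SD) in 0.07 mg/kg rats and 1.12 ± 0.08 in vehicle rats (n = 6 each, exact two-sided permutation test, p = 0.229). Albumin, the main protein made by hepatocytes, lay between 14.35 and 14.40 (median 14.39) in 0.07 mg/kg rats and between 14.23 and 14.44 (median 14.40) in vehicle rats, so the label of liver held on every array. Of 13 exocrine pancreas markers 11, and of 8 kidney and adrenal markers 7, had means below the lowest array median, 4.71. In bulk liver, fewer cells of a type and less RNA per cell cannot be told apart.

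The intervals around the group differences were narrow for most probe sets. The 95% interval of the fit was not adjusted for the number of probe sets. It left out a 2-fold change in either direction for 99.8% of probe sets and a 1.5-fold change for 98.5%. For the 15683 probe sets with a mean at or above the lowest array median, the shares were 99.7% and 97.7%. For the 15359 dimmer ones they were 99.9% and 99.3%. RMA shrinks differences of dim probe sets, so a narrow interval there does not bound the change of the transcript. The median distance from the estimate to either end of the interval was 0.17 on the log2 scale, a factor of 1.12. Only 1 probe set differed by over 2-fold in group means and 12 by over 1.5-fold. The spread between rats had a median SD of 0.143 log2 units in 0.07 mg/kg rats and 0.129 in vehicle rats. At an unadjusted p under 0.05 there were 1130 probe sets (3.64%), of which 591 were higher (1.9%) and 539 lower (1.74%) at 0.07 mg/kg.

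With each of 14217 genes represented by its brightest probe set, 50.6% were higher and 49.4% lower at 0.07 mg/kg, with a median log2 difference of 0.00098, and 418 (2.94%) had an unadjusted p under 0.05. These are the values against which the gene lists below can be read, with a limit by brightness. Among probe sets with a mean at or above the lowest array median, 46.7% were higher, with a median log2 difference of -0.005. Among dimmer ones 52.3% were higher, with a median of 0.005. The bright share differed by list: 30 of 32 PPAR-alpha targets and 16 of 16 macrophage markers were bright, against 3 of 8 AhR targets. The 31 lists held 576 measured genes. Of these, 230 were higher and 346 lower, 0 were called, 0 had groups that did not overlap, and 15 (2.6%) had an unadjusted p under 0.05. Their median log2 difference was -0.02. The interval left out a 2-fold change for 97.9% of them. The 12 exceptions were Bcl6, Bhlhe40, Chac1, Cyp7a1, Egr1, Fgf21, Igfbp1, Lum, Mt2A, Mx1, Mx2 and Socs2. In the paragraphs that follow, fold means the 0.07 mg/kg level over the vehicle level from group means on the log2 scale, intervals are the 95% intervals of the fit, and the limma adjusted p was 1.00 for each named gene other than Asb5 in the comparison with vehicle. Probe sets on this array can share sequence among close family members, so the Cyp2, Cyp3, Cyp4 and Gst genes may be measured in part through their relatives. Another probe set of Gclc, Ahr, Acaca, Mdm2 and Cd3e had a difference of the opposite sign.

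Drug-metabolising genes under CAR and PXR lay close to vehicle. Of 21 measured members 6 were higher and 15 lower, none with an unadjusted p under 0.05, and the median log2 difference was -0.07. Cyp3a23-3a1, the PXR-induced cytochrome P450 of rat liver, lay between 11.90 and 12.49 (median 12.25) in 0.07 mg/kg rats and between 12.13 and 12.66 (median 12.33) in vehicle rats. The groups overlapped over most of their range, at 0.903-fold (95% interval 0.774 to 1.05) the vehicle level. The male-predominant Cyp3a2 lay between 13.27 and 13.47 (median 13.34) in 0.07 mg/kg rats and between 13.32 and 13.46 (median 13.36) in vehicle rats. Its levels were nearly the same in both groups, at 0.986-fold (95% interval 0.930 to 1.04) the vehicle level. Cyp2a1, a steroid hydroxylase, stood at 0.874-fold (95% interval 0.747 to 1.02) with 5 of 6 rats below the vehicle mean, and the drug efflux pump Abcb1a at 0.904-fold (95% interval 0.789 to 1.04). The other members lay between 0.847-fold for Gsta3, a glutathione transferase, and 1.16-fold for Cyp3a9. The receptors themselves, Nr1i3 (CAR) and Nr1i2 (PXR), stood at 0.898-fold and 0.991-fold. The phenobarbital-responsive Cyp2b1 and Cyp2b2 were on the list and were not analysed here.

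The AhR targets likewise lay close to vehicle, with 4 of 8 measured members higher and 4 lower and a median log2 difference of -0.01. Only 3 of the 8 had a mean at or above the lowest array median, and their median log2 difference was -0.05. The sign of the list median differed in 5 of the alternative settings, so the even split rests largely on dim signals. Cyp1a1, the most sensitive transcript of dioxin-like exposure, is nearly silent in untreated liver. It lay between 4.23 and 4.63 (median 4.31) in 0.07 mg/kg rats and between 4.22 and 4.91 (median 4.53) in vehicle rats. Both medians lay below the lowest array median, no rat of the dosed group exceeded the highest vehicle rat, and no fold is given for a signal this dim. Cyp1a2, which hepatocytes express constitutively, lay between 12.38 and 12.58 (median 12.53) in 0.07 mg/kg rats and between 12.43 and 12.66 (median 12.57) in vehicle rats. The groups overlapped, at 0.959-fold (95% interval 0.887 to 1.04), so an induction of 1.04-fold or more lay outside the interval. Ahr itself, also dim, lay between 4.19 and 4.90 (median 4.46) in 0.07 mg/kg rats and between 4.14 and 4.45 (median 4.33) in vehicle rats.

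Among NRF2 targets 12 of 22 measured members were higher and 10 lower, with a median log2 difference of 0.01 and none with an unadjusted p under 0.05. Nqo1, the quinone reductase, lay between 6.65 and 6.95 (median 6.84) in 0.07 mg/kg rats and between 6.49 and 7.00 (median 6.80) in vehicle rats, with overlapping groups and 1.02-fold (95% interval 0.771 to 1.34). Gclc, the catalytic subunit of the enzyme that starts glutathione synthesis, lay between 9.29 and 9.69 (median 9.47) in 0.07 mg/kg rats and between 9.07 and 9.68 (median 9.41) in vehicle rats. It stood at 1.05-fold (95% interval 0.898 to 1.23) its vehicle level. Cbr1, a carbonyl reductase, had the smallest p of the list among genes above the lowest median, with 1.07-fold (95% interval 0.974 to 1.19) and 5 of 6 rats above the vehicle mean.

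**Figure D1:**
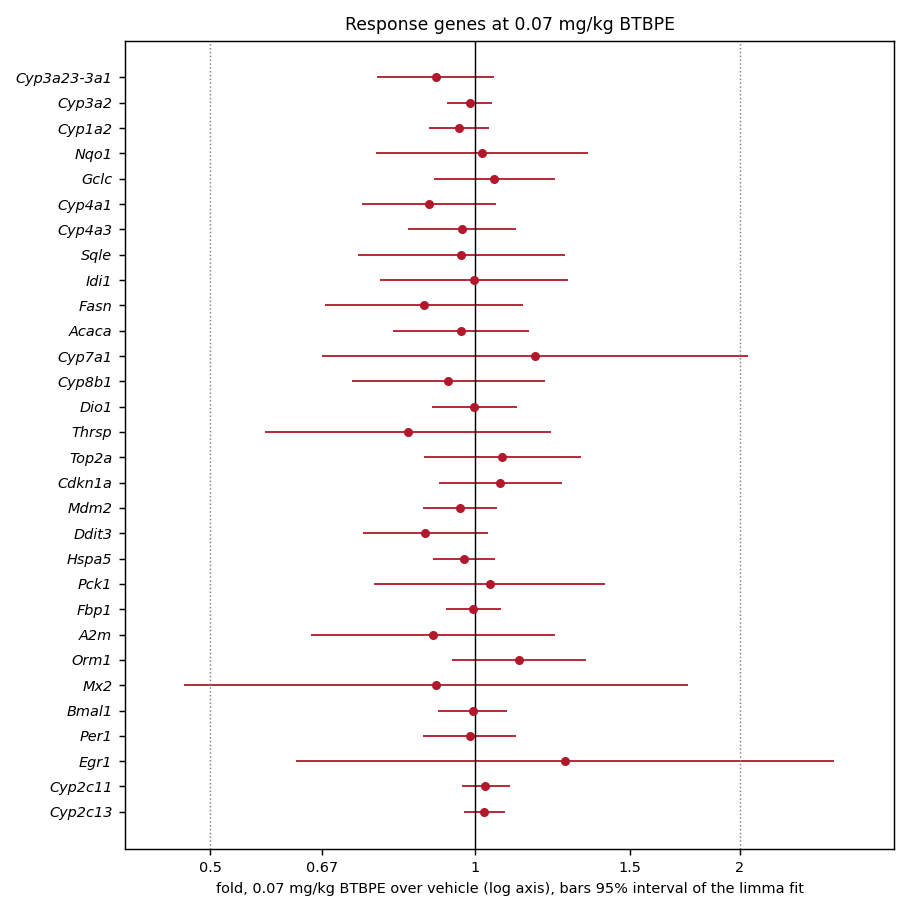
Fold of 30 response genes, 0.07 mg/kg BTBPE over vehicle, on a log axis. Points are the ratio of group means (6 rats each), bars the 95% interval of the limma fit, dotted lines 0.5-fold and 2-fold. All bars cross 1, and those of Cyp7a1, Mx2 and Egr1 reach past a dotted line.

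PPAR-alpha targets leaned to the lower side. Of 32 measured members 8 were higher and 24 lower, the median log2 difference was -0.05, and 3 had an unadjusted p under 0.05. Cyp4a1, the fatty acid omega-hydroxylase that peroxisome proliferators raise most strongly in rat liver, lay between 10.94 and 11.22 (median 11.01) in 0.07 mg/kg rats and between 11.06 and 11.37 (median 11.20) in vehicle rats. All 6 dosed rats lay below the vehicle mean, the groups overlapped, and the level was 0.887-fold (95% interval 0.745 to 1.06) that of vehicle. Its relative Cyp4a3 lay between 10.88 and 11.35 (median 11.15) in 0.07 mg/kg rats and between 11.07 and 11.27 (median 11.20) in vehicle rats, at 0.967-fold (95% interval 0.839 to 1.11). Acaa2, a thiolase of mitochondrial beta-oxidation, lay between 11.76 and 12.53 (median 12.32) in 0.07 mg/kg rats and between 12.25 and 12.56 (median 12.47) in vehicle rats. It stood at 0.842-fold (95% interval 0.718 to 0.988) with 4 of 6 rats below the vehicle mean, while another probe set of the gene had the opposite sign. Its SD was 0.34 in dosed rats and 0.11 in vehicle rats, while the interval rests on the spread over all 35 arrays. Cpt1b, the muscle-type carnitine palmitoyltransferase, differed the other way, in a signal close to dim. Its vehicle median lay below the lowest array median, 4.71. It lay between 4.82 and 5.03 (median 4.93) in 0.07 mg/kg rats and between 4.60 and 4.95 (median 4.69) in vehicle rats, at 1.15-fold (95% interval 1.03 to 1.29) with 6 of 6 rats above the vehicle mean. Hadhb, another enzyme of that pathway, stood at 0.928-fold. The mean of the list on each array, taken as a deviation from its mean over all 35 arrays, ran from -0.12 to 0.05 log2 units in 0.07 mg/kg rats and from -0.003 to 0.115 in vehicle rats, and 5 of 6 dosed rats lay below every vehicle rat. At the higher doses 28, 21, 22 and 19 of the same 32 genes lay below vehicle at 0.69, 6.88, 68 and 680 mg/kg, all measured against the same 6 vehicle rats.

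Genes of fasting and gluconeogenesis had 6 of 16 measured members higher and 10 lower, with a median log2 difference of -0.14. Pck1, the rate-limiting enzyme of gluconeogenesis, lay between 12.31 and 13.01 (median 12.57) in 0.07 mg/kg rats and between 12.46 and 12.73 (median 12.59) in vehicle rats, with 1.04-fold (95% interval 0.768 to 1.41). Fbp1, fructose-1,6-bisphosphatase, lay between 12.13 and 12.30 (median 12.17) in 0.07 mg/kg rats and between 12.07 and 12.31 (median 12.17) in vehicle rats. The levels of both enzymes overlapped fully between the groups, Fbp1 at 0.996-fold (95% interval 0.926 to 1.07). Lpin1, a phosphatidate phosphatase that fasting raises, lay between 6.85 and 7.86 (median 7.61) in 0.07 mg/kg rats and between 7.36 and 8.12 (median 7.95) in vehicle rats. It stood at 0.806-fold (95% interval 0.646 to 1.01) with 5 of 6 rats below the vehicle mean. Fgf21, the fasting hormone that PPAR-alpha controls in liver, was among the genes with the largest group difference and was singled out after its values were seen. It lay between 5.42 and 6.51 (median 5.74) in 0.07 mg/kg rats and between 5.43 and 7.26 (median 6.63) in vehicle rats, and all 6 dosed rats lay below the vehicle mean although the groups overlapped (0.630-fold (95% interval 0.337 to 1.18)). Sds, serine dehydratase, lay between 5.15 and 6.19 (median 6.05) in 0.07 mg/kg rats and between 5.26 and 6.14 (median 5.36) in vehicle rats, at 1.24-fold (95% interval 0.972 to 1.57).

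Sterol and fat synthesis showed more spread between rats than between the groups. In cholesterol synthesis and uptake, 3 of 20 measured members were higher and 17 lower, with a median log2 difference of -0.05 and none with an unadjusted p under 0.05. Sqle, squalene epoxidase, lay between 8.63 and 9.38 (median 8.88) in 0.07 mg/kg rats and between 8.21 and 9.24 (median 9.06) in vehicle rats, with 0.965-fold (95% interval 0.736 to 1.27). Idi1, isopentenyl diphosphate isomerase, lay between 10.71 and 11.14 (median 10.95) in 0.07 mg/kg rats and between 10.13 and 11.32 (median 11.06) in vehicle rats. Its vehicle group spread wider than its dosed group and enclosed it, with 0.998-fold (95% interval 0.779 to 1.28). Insig1, the sterol-sensing brake on SREBP, stood at 0.819-fold (95% interval 0.557 to 1.20) with 6 of 6 rats below the vehicle mean, and the desaturase Sc5d at 0.953-fold (95% interval 0.852 to 1.07). The list mean ran from -0.15 to 0.11 log2 units in 0.07 mg/kg rats and from -0.42 to 0.30 in vehicle rats. In fatty acid and triglyceride synthesis, 6 of 21 members were higher and 15 lower (median log2 difference -0.03). Fasn, fatty acid synthase, lay between 8.85 and 9.87 (median 9.32) in 0.07 mg/kg rats and between 8.88 and 9.85 (median 9.66) in vehicle rats, at 0.875-fold (95% interval 0.675 to 1.13). Acaca, the acetyl-CoA carboxylase that feeds it, stood at 0.964-fold (95% interval 0.807 to 1.15), and Agpat2, which makes phosphatidic acid, at 1.07-fold (95% interval 0.967 to 1.20).

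Bile acid genes followed the same description, with 6 of 20 measured members higher, 14 lower and a median log2 difference of -0.07. Cyp7a1, the rate-limiting enzyme of bile acid synthesis, lay between 9.39 and 11.47 (median 11.38) in 0.07 mg/kg rats and between 9.41 and 11.58 (median 11.04) in vehicle rats. Single low rats occurred in both groups, and the value was 1.17-fold (95% interval 0.669 to 2.04) that of vehicle. Without the lowest vehicle rat, replicate 4, its log2 difference was -0.05, against 0.23 with it, and without the lowest dosed rat, replicate 5, it was 0.55. Cyp8b1, the 12-alpha-hydroxylase, lay between 10.22 and 10.76 (median 10.52) in 0.07 mg/kg rats and between 10.08 and 10.83 (median 10.70) in vehicle rats, at 0.932-fold (95% interval 0.725 to 1.20). Slc10a1, the sodium-dependent bile acid uptake transporter, lay between 12.44 and 12.60 (median 12.55) in 0.07 mg/kg rats and between 12.59 and 12.65 (median 12.62) in vehicle rats. All 6 dosed rats lay below the vehicle mean and 1 reached the vehicle range, at 0.952-fold (95% interval 0.898 to 1.01). Cyp27a1, the sterol 27-hydroxylase, stood at 0.945-fold (95% interval 0.868 to 1.03).

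Thyroid hormone action in liver can be read from deiodinase 1 and from lipogenic targets. Of 11 measured members 3 were higher and 8 lower, and the median log2 difference was -0.04. Dio1, which activates thyroxine, lay between 6.68 and 6.89 (median 6.82) in 0.07 mg/kg rats and between 6.65 and 7.06 (median 6.79) in vehicle rats, the same range to within the spread of the rats at 0.999-fold (95% interval 0.894 to 1.11). Thrsp, the thyroid hormone responsive lipogenic factor, lay between 9.81 and 11.41 (median 10.32) in 0.07 mg/kg rats and between 10.29 and 11.22 (median 10.70) in vehicle rats, with wide overlap and 0.840-fold (95% interval 0.578 to 1.22). Klf9, a transcription factor that thyroid hormone and glucocorticoids raise, stood at 0.881-fold (95% interval 0.695 to 1.12), and 1 of its 2 other probe sets had the opposite sign. The dim Hr, a corepressor, lay between 3.49 and 4.22 (median 4.09) in 0.07 mg/kg rats and between 3.75 and 3.95 (median 3.86) in vehicle rats.

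Growth hormone and male-predominant genes had 10 of 15 measured members higher and 5 lower, with a median log2 difference of 0.03. Cyp2c11, the principal P450 of the adult male rat liver, lay between 13.04 and 13.20 (median 13.17) in 0.07 mg/kg rats and between 12.98 and 13.20 (median 13.08) in vehicle rats. Cyp2c13, its male-specific relative, lay between 12.95 and 13.03 in 0.07 mg/kg rats and between 12.86 and 13.03 in vehicle rats. Both were among the most tightly measured genes of the comparison, at 1.03-fold (95% interval 0.966 to 1.09) and 1.02-fold (95% interval 0.973 to 1.08). Igfals, the acid-labile subunit that carries IGF1 in blood, lay between 9.90 and 10.36 (median 10.13) in 0.07 mg/kg rats and between 9.61 and 10.24 (median 9.89) in vehicle rats, at 1.17-fold (95% interval 0.975 to 1.40) with 5 of 6 rats above the vehicle mean. In the circadian clock list, 6 of 18 members were higher and 12 lower (median log2 difference -0.03). Bmal1, the core activator, stood at 0.994-fold (95% interval 0.908 to 1.09), and Per1, a core repressor, at 0.986-fold (95% interval 0.873 to 1.11). Tef, a clock-controlled transcription factor, lay between 6.82 and 7.10 (median 7.01) in 0.07 mg/kg rats and between 7.01 and 7.33 (median 7.14) in vehicle rats. It stood at 0.903-fold (95% interval 0.822 to 0.993) with 6 of 6 rats below the vehicle mean, while 1 of its 2 other probe sets had the opposite sign. Bhlhe41, a clock repressor, was too dim for a fold and lay between 2.73 and 3.07 (median 2.96) in 0.07 mg/kg rats and between 2.93 and 3.33 (median 3.15) in vehicle rats. Of 13 measured immediate early genes 6 were higher and 7 lower. Egr1 lay between 7.53 and 9.61 (median 8.68) in 0.07 mg/kg rats and between 6.51 and 9.62 (median 8.32) in vehicle rats, a range of over 2 log2 units in each group that left its level at 1.26-fold (95% interval 0.626 to 2.56). Its log2 difference was 0.34, and 0.01 without vehicle replicate 4.

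Proliferation and damage genes gave no called member either. In the cell cycle list 17 of 39 measured members were higher and 22 lower, with a median log2 difference of -0.03. Top2a, the topoisomerase of dividing cells, lay between 4.35 and 5.30 (median 4.89) in 0.07 mg/kg rats and between 4.48 and 5.28 (median 4.59) in vehicle rats, at 1.07-fold (95% interval 0.875 to 1.32). Mki67, the Ki-67 antigen, was dim in both groups and averaged 3.73 ± 0.27 in 0.07 mg/kg rats and 3.86 ± 0.36 in vehicle rats (log2, SD, n = 6 each). Among p53 targets 7 of 14 members were higher and 7 lower. Cdkn1a, the p21 inhibitor of the cell cycle, lay between 7.09 and 7.71 (median 7.52) in 0.07 mg/kg rats and between 7.15 and 7.56 (median 7.34) in vehicle rats, at 1.07-fold (95% interval 0.910 to 1.25), and Mdm2, the ubiquitin ligase that degrades p53, stood at 0.961-fold (95% interval 0.872 to 1.06). Zmat3, an RNA-binding protein under p53 control, lay between 5.91 and 6.13 (median 6.00) in 0.07 mg/kg rats and between 6.07 and 6.31 (median 6.17) in vehicle rats. Its groups overlapped only at their edges, with 6 of 6 dosed rats below the vehicle mean and 0.879-fold (95% interval 0.809 to 0.956). Of 25 measured genes of ER stress and the amino acid response 9 were higher and 16 lower (median log2 difference -0.04). Ddit3 (CHOP), the transcription factor of prolonged stress, stood at 0.878-fold (95% interval 0.746 to 1.03), and the chaperone Hspa5 (BiP) at 0.972-fold (95% interval 0.896 to 1.05). Herpud1, which works in the disposal of misfolded ER proteins, lay between 9.41 and 9.87 (median 9.67) in 0.07 mg/kg rats and between 9.65 and 10.23 (median 9.89) in vehicle rats. All 6 dosed rats lay below the vehicle mean, at 0.846-fold (95% interval 0.726 to 0.986). Serine synthesis enzymes on the same list, Phgdh and Psat1, had values of 0.789-fold and 0.799-fold without an unadjusted p under 0.05.

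Inflammation genes lay near vehicle, apart from 1 low rat in each group for interferon targets. Of 23 measured acute phase genes 11 were higher and 12 lower, with a median log2 difference of -0.00034. A2m, the classical rat acute phase protein, lay between 8.33 and 9.36 (median 8.90) in 0.07 mg/kg rats and between 8.78 and 9.41 (median 9.04) in vehicle rats, at 0.895-fold (95% interval 0.650 to 1.23). Orm1, orosomucoid, lay between 11.70 and 12.16 (median 12.08) in 0.07 mg/kg rats and between 11.31 and 12.32 (median 11.91) in vehicle rats. It stood at 1.12-fold (95% interval 0.943 to 1.34) with 5 of 6 rats above the vehicle mean. Cp, ceruloplasmin, stood at 0.960-fold (95% interval 0.901 to 1.02). Of 24 interferon response genes 9 were higher and 15 lower. The antiviral GTPase Mx2 lay between 4.38 and 6.43 (median 5.84) in 0.07 mg/kg rats and between 4.50 and 6.24 (median 6.08) in vehicle rats, a spread that left its level at 0.903-fold (95% interval 0.467 to 1.75). Its log2 difference of -0.15 was 0.11 without dosed replicate 3 and -0.41 without vehicle replicate 3, the lowest rat of each group. The interferon list mean was -0.65 log2 units in dosed replicate 3, with the other dosed rats at -0.16 to 0.39, and -0.44 in vehicle replicate 3, with the other vehicle rats at 0.04 to 0.28. Ifit1 stood at 1.11-fold (95% interval 0.935 to 1.32) and Gbp2 at 0.835-fold (95% interval 0.561 to 1.24).

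Markers of the cells that make up liver were described in the same way. Hepatocyte markers had 4 of 11 measured members higher and 7 lower, with a median log2 difference of -0.003. Apoa1 and Apob, the main proteins of high-density and low-density lipoproteins, stood at 0.950-fold and 0.963-fold. Pericentral hepatocyte genes were higher for 3 of 10 members and periportal genes for 9 of 12, with median log2 differences of -0.03 and 0.04. Glul, glutamine synthetase of the hepatocytes around the central vein, stood at 0.942-fold (95% interval 0.829 to 1.07). Cps1, the first enzyme of the urea cycle, stood at 1.02-fold (95% interval 0.959 to 1.09). Gls2, the periportal liver glutaminase, lay between 10.41 and 10.62 (median 10.55) in 0.07 mg/kg rats and between 10.28 and 10.57 (median 10.39) in vehicle rats. It stood at 1.11-fold (95% interval 1.01 to 1.21) with 6 of 6 rats above the vehicle mean.

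Kupffer cell and macrophage markers had 0 of 16 measured members higher and 16 lower, with a median log2 difference of -0.18, the lowest of the 31 lists, yet none had an unadjusted p under 0.05. Cd163, the haemoglobin scavenger receptor, lay between 6.04 and 6.73 (median 6.41) in 0.07 mg/kg rats and between 6.11 and 6.78 (median 6.73) in vehicle rats, at 0.862-fold (95% interval 0.686 to 1.08). Lyz2, lysozyme, lay between 8.82 and 10.34 (median 9.60) in 0.07 mg/kg rats and between 9.70 and 10.34 (median 10.03) in vehicle rats. It had the smallest p of the list at 0.746-fold (95% interval 0.539 to 1.03) with 5 of 6 dosed rats below the vehicle mean. Clec4f, the Kupffer cell lectin, stood at 0.899-fold, Cd68 at 0.893-fold and the colony-stimulating factor receptor Csf1r at 0.957-fold. By rat, the list mean was -0.35, -0.24, -0.23, 0.01, 0.14 and 0.27 log2 units in the 6 dosed rats, in rising order, and -0.27, 0.13, 0.13, 0.20, 0.23 and 0.32 in the vehicle rats. The groups overlapped, with 3 low rats in the dosed group and 1 in the vehicle group. At the higher doses 16, 14, 16 and 15 of the 16 markers also lay below vehicle (0.69, 6.88, 68 and 680 mg/kg), which shares its 6 rats with every one of these comparisons. Sinusoidal and vascular endothelial markers were higher for 3 of 17 members and lower for 14, with a median log2 difference of -0.10. Stab2, the hyaluronan scavenger receptor of sinusoids, lay between 7.87 and 8.47 (median 8.21) in 0.07 mg/kg rats and between 8.15 and 8.47 (median 8.31) in vehicle rats, at 0.916-fold (95% interval 0.802 to 1.05). Ptprb, the vascular endothelial phosphatase, lay between 8.30 and 8.57 (median 8.42) in 0.07 mg/kg rats and between 8.55 and 8.88 (median 8.62) in vehicle rats. The groups met only at their edges, with 0.847-fold (95% interval 0.755 to 0.951). The lymphatic and sinusoidal receptor Flt4, dim here, lay between 4.10 and 4.39 (median 4.19) in 0.07 mg/kg rats and between 4.28 and 4.51 (median 4.47) in vehicle rats. The part of the cell make-up of the samples in these differences was not tested.

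Of 19 measured lymphocyte and NK cell markers 4 were higher and 15 lower (median log2 difference -0.04), and 12 had means below the lowest array median. Cd3e, the T cell receptor chain, lay between 4.30 and 4.77 (median 4.58) in 0.07 mg/kg rats and between 4.36 and 4.88 (median 4.60) in vehicle rats. Stellate cell and fibroblast markers were higher for 9 of 18. Lrat, the retinol-storing enzyme of stellate cells, stood at 1.01-fold (95% interval 0.882 to 1.15), and Cygb, cytoglobin, lay between 5.38 and 5.84 (median 5.59) in 0.07 mg/kg rats and between 5.25 and 5.55 (median 5.40) in vehicle rats. Cygb lay at 1.14-fold (95% interval 1.04 to 1.25) with 5 of 6 rats above the vehicle mean. Desmin, Des, stood at 0.890-fold (95% interval 0.789 to 1.00). Krt19, the bile duct keratin, lay between 4.71 and 6.00 (median 5.06) in 0.07 mg/kg rats and between 4.60 and 5.49 (median 4.99) in vehicle rats, in a list with 4 of 7 members higher. Haemoglobin beta, Hbb, stood at 0.944-fold (95% interval 0.744 to 1.20), and the erythroid list had 3 of 5 members higher. Neutrophil markers were higher for 4 of 6 members, 5 of the 6 being below the lowest array median. Exocrine pancreas markers were higher for 7 of 13 members and kidney and adrenal markers for 5 of 8. The digestive protease gene Prss2, far below the lowest array median, lay between 2.09 and 2.41 (median 2.36) in 0.07 mg/kg rats and between 2.36 and 2.69 (median 2.54) in vehicle rats.

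**Figure D2:**
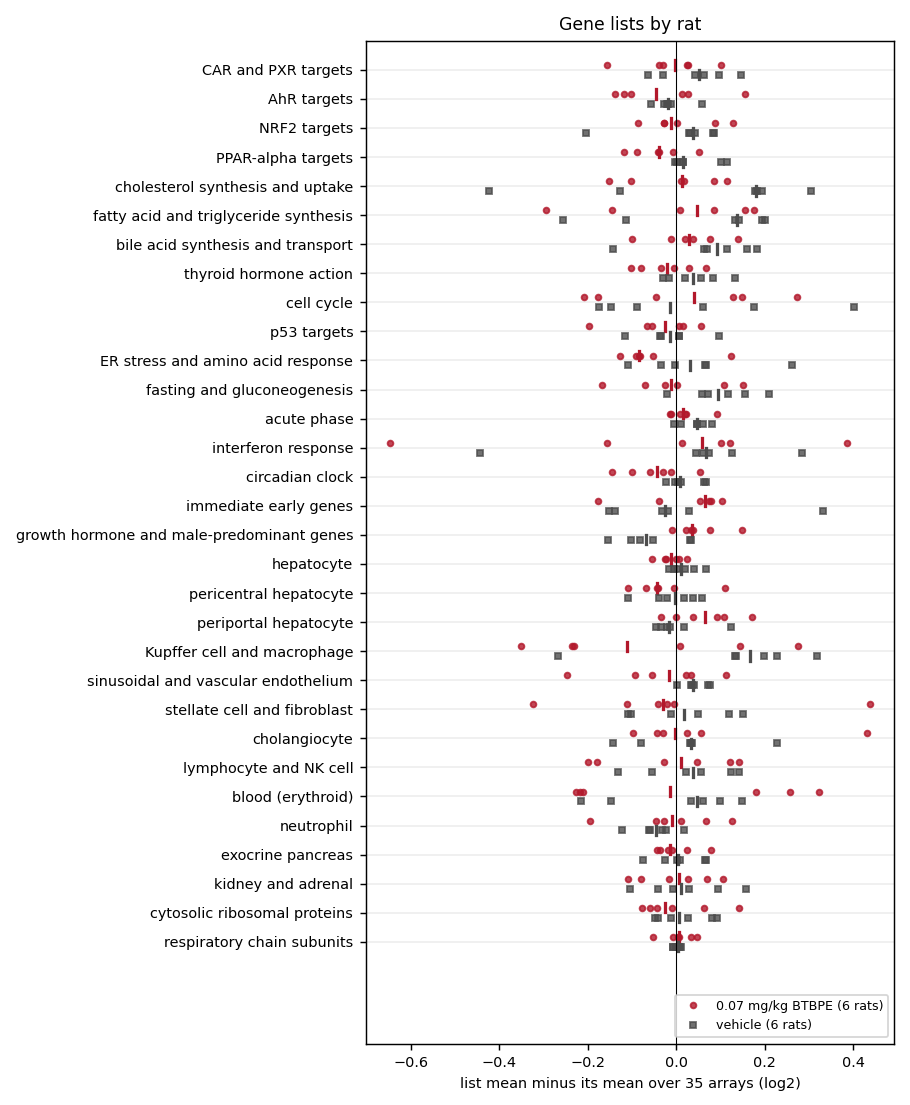
Mean level of each of 31 gene lists on each of 12 arrays, as the deviation in log2 units from the list's mean over all 35 arrays. Red circles are 0.07 mg/kg rats and grey squares vehicle rats (6 each), and vertical bars are group medians. The groups overlap in every list, and the widest spread is within the interferon response list, where 1 rat of each group stands far to the left.

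The genes with the smallest p in each direction, among those with a mean at or above the lowest array median, were all uncalled. On the higher side, Atxn2l, an RNA-binding relative of ataxin 2, lay between 6.50 and 6.74 (median 6.58) in 0.07 mg/kg rats and between 6.17 and 6.56 (median 6.32) in vehicle rats. All 6 dosed rats lay above the vehicle mean and the edges of the groups overlapped, at 1.20-fold (95% interval 1.09 to 1.32). Mlf2, a nuclear protein of the myeloid leukemia factor family, lay between 7.83 and 8.25 (median 8.09) in 0.07 mg/kg rats and between 7.69 and 7.88 (median 7.84) in vehicle rats, at 1.18-fold (95% interval 1.07 to 1.30). Hnrnpul1, another RNA-binding protein, stood at 1.20-fold (95% interval 1.07 to 1.33). The remainder on this side were Stau2, which carries mRNA along microtubules (1.22-fold, 1 of 3 other probe sets opposite in sign), the transporter Slc44a4 (1.34-fold), the secreted phospholipase Pla2g2f (dim, 4.79 to 5.26 in dosed rats and 4.52 to 4.84 in vehicle rats), Taf11l1 (1.15-fold), Gps2, a subunit of the NCoR corepressor complex (1.15-fold), the zinc finger gene Zfp628 (1.14-fold) and the calcium channel Cacna1i (1.19-fold). Each had 6 of 6 dosed rats above the vehicle mean except Stau2, with 5 of 6, a count that the choice by small p favours.

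On the lower side, Smad6, an inhibitory SMAD that damps bone morphogenetic protein signalling, lay between 5.90 and 6.22 (median 6.13) in 0.07 mg/kg rats and between 6.18 and 6.46 (median 6.36) in vehicle rats. Its groups shared only a narrow band, at 0.842-fold (95% interval 0.770 to 0.921), and 1 of its 3 other probe sets had the opposite sign. Rcn3, a calcium-binding protein of the ER, lay between 5.39 and 5.71 (median 5.54) in 0.07 mg/kg rats and between 5.63 and 5.98 (median 5.89) in vehicle rats. It stood at 0.797-fold (95% interval 0.703 to 0.903) with 6 of 6 dosed rats below the vehicle mean. Lap3, a leucine aminopeptidase, lay between 9.17 and 9.64 (median 9.42) in 0.07 mg/kg rats and between 9.55 and 9.88 (median 9.70) in vehicle rats, at 0.824-fold (95% interval 0.727 to 0.932). The others were Plekho1 (0.848-fold), Zmat3, Grap, an adaptor of the GRB2 family (dim), Cdkl4, a kinase (0.682-fold), Tbxas1, thromboxane synthase (0.829-fold), Eif2a, a translation initiation factor (0.872-fold), and Igip (0.846-fold). Every one of these 10 had 6 of 6 dosed rats below the vehicle mean, which the choice by small p likewise favours. The smallest p over genes named here was that of Asb5, singled out after its values were seen. It is a dim gene that lay between 4.29 and 4.68 (median 4.56) in 0.07 mg/kg rats and between 4.78 and 5.18 (median 4.86) in vehicle rats, with groups that did not overlap (limma adjusted p = 0.651).

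Complete separation of the 6 dosed from the 6 vehicle rats occurred for 51 of 31042 probe sets (0.164%), 21 on the higher side (0.0677%) and 30 on the lower side (0.0966%). They represented 20 genes by the brightest probe set, 7 higher and 13 lower, none of them on a gene list. Eif2a lay between 7.33 and 7.44 (median 7.40) in 0.07 mg/kg rats and between 7.53 and 7.69 (median 7.56) in vehicle rats. The gap between the groups was small beside the levels, at 0.872-fold (95% interval 0.796 to 0.956). Taf11l1 lay between 5.62 and 5.83 (median 5.68) in 0.07 mg/kg rats and between 5.42 and 5.57 (median 5.49) in vehicle rats, at 1.15-fold (95% interval 1.05 to 1.27). Id1, an inhibitor of DNA binding that bone morphogenetic proteins raise in liver, lay between 6.23 and 6.55 (median 6.40) in 0.07 mg/kg rats and between 6.60 and 7.10 (median 6.67) in vehicle rats. It had the largest difference of the bright genes in this group at 0.788-fold (95% interval 0.644 to 0.964), with vehicle replicate 4 above the other vehicle rats. Pam, the enzyme that amidates peptide hormones, lay between 7.55 and 7.71 (median 7.66) in 0.07 mg/kg rats and between 7.44 and 7.55 (median 7.47) in vehicle rats, at 1.11-fold (95% interval 1.01 to 1.22). Flot2, a membrane raft protein, lay between 6.89 and 6.98 (median 6.95) in 0.07 mg/kg rats and between 6.78 and 6.85 (median 6.82) in vehicle rats, at 1.09-fold (95% interval 1.01 to 1.17). The others named by the rule were the sodium channel Scn10a (1.14-fold), the peroxidase Pxdn (0.890-fold), the GTPase Arl16 (0.897-fold), the protease inhibitor Wfdc3 (0.898-fold) and the orphan P450 Cyp20a1 (0.916-fold). Another probe set of Pxdn, of Arl16 and of Pam had the opposite sign.

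**Figure D3:**
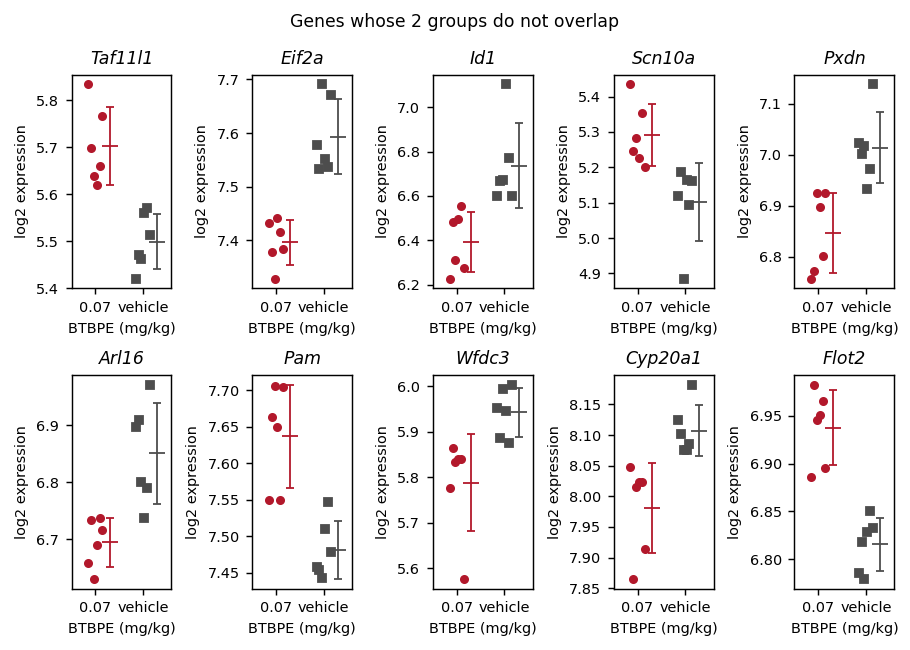
Log2 expression per rat of the 10 genes with a mean at or above the lowest array median and the largest difference among those whose groups did not overlap. Red circles are 0.07 mg/kg rats, grey squares vehicle rats, with mean and SD beside them (n = 6 each). The gap between the groups is under 0.1 log2 units in every panel, and each panel has its own axis.

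The largest group differences belonged to genes with a wide spread between rats, and these were singled out after their values were seen. Ugt2b, a glucuronosyltransferase, lay between 12.33 and 12.63 (median 12.36) in 0.07 mg/kg rats and between 4.34 and 12.72 (median 12.46) in vehicle rats. A single vehicle rat, replicate 3, stood at 4.34 while the other 11 rats lay at 12.33 or above, so the value of 2.39-fold (95% interval 0.413 to 13.8) rested on that rat: the log2 difference was 1.26 with it and -0.11 without it. Like values occurred at other doses, with a lowest rat at 4.57 for 0.69 mg/kg and at 4.97 for 6.88 mg/kg, while no rat at 68 or 680 mg/kg was below 12.24. Ephx2, the soluble epoxide hydrolase, lay between 5.37 and 8.79 (median 5.76) in 0.07 mg/kg rats and between 5.84 and 6.07 (median 5.89) in vehicle rats. Dosed replicates 2 and 3 stood at 8.74 and 8.79 and the other 10 rats at 6.07 or below, giving 1.69-fold (95% interval 0.677 to 4.22). A highest rat between 8.58 and 8.81 was present in each of the 4 higher dose groups. Serpinb9b lay between 3.53 and 8.59 (median 7.70) in 0.07 mg/kg rats and between 7.05 and 8.98 (median 7.65) in vehicle rats. Dosed replicate 1 alone stood at 3.53, and the log2 difference of -0.73 was -0.01 without it.

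Bcl6, a transcriptional repressor of hepatic lipid and sex-biased genes, lay between 5.81 and 10.10 (median 9.69) in 0.07 mg/kg rats and between 5.35 and 9.95 (median 8.75) in vehicle rats, at 2.00-fold (95% interval 0.587 to 6.78). Dosed replicate 5 and vehicle replicates 4 and 5 were low, at 5.81, 5.35 and 6.30, and leaving out the first or the second of these gave log2 differences of 1.65 and 0.45 against 1.00 with all rats. Cyp7a1 was lowest in the same 3 rats, at 9.39, 9.41 and 10.2. Itgal, the integrin alpha chain of leukocytes, lay between 4.21 and 7.04 (median 5.80) in 0.07 mg/kg rats and between 5.67 and 7.03 (median 6.84) in vehicle rats. Its dosed group spread far below the vehicle range in 2 rats, at 0.540-fold (95% interval 0.317 to 0.921). Cdh17, a cadherin, lay between 4.67 and 9.84 (median 8.30) in 0.07 mg/kg rats and between 5.36 and 8.74 (median 7.07) in vehicle rats, with full overlap at 1.45-fold (95% interval 0.612 to 3.42). Its log2 difference of 0.53 ran from 0.07 without dosed replicate 4 to 1.11 without dosed replicate 1. Its levels over vehicle were 3.10, 3.54, 3.35 and 2.93-fold at 0.69, 6.88, 68 and 680 mg/kg. Stac3 stood at 1.46-fold (95% interval 0.928 to 2.29), Sgk1, a kinase that glucocorticoids raise, at 0.696-fold (95% interval 0.371 to 1.30), and Bhlhe40, a clock repressor, at 0.630-fold (95% interval 0.342 to 1.16).

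**Figure D4:**
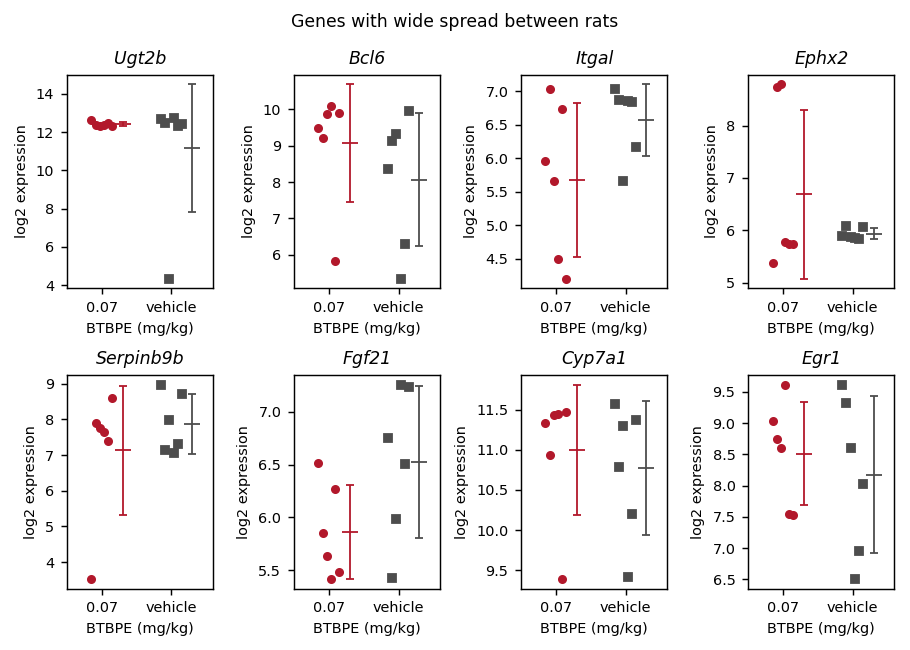
Log2 expression per rat of 8 genes with a wide spread, chosen after their values were seen. Red circles are 0.07 mg/kg rats, grey squares vehicle rats, with mean and SD beside them (n = 6 each). One vehicle rat sets the mean of Ugt2b, 1 dosed rat that of Serpinb9b and 2 dosed rats that of Ephx2.

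Set directly against each higher dose, 0.07 mg/kg again had 0 called probe sets. The counts at an unadjusted p under 0.05 were 1215 against 0.69 mg/kg (3.91%), 1404 against 6.88 mg/kg (4.52%), 1381 against 68 mg/kg (4.45%) and 1414 against 680 mg/kg (4.56%). The smallest adjusted p was 0.463, against 6.88 mg/kg, and the called share was 0% in each of these contrasts. Against the mean of the 4 higher doses, 1316 probe sets (4.24%) had an unadjusted p under 0.05 and 0 were called, with a smallest adjusted p of 0.860.

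Genes that stood apart at 0.07 mg/kg from vehicle and from the mean of the higher doses were sought after the values had been seen, and none was called. Lap3 had the smallest p of the named genes against the higher doses, at 0.808-fold their mean level (limma adjusted p = 0.860). Its level over vehicle was 0.824-fold at 0.07 mg/kg, and 0.991, 1.05, 1.04 and 0.989-fold at 0.69, 6.88, 68 and 680 mg/kg. Zmat3 stood at 0.885-fold the higher doses. Grap and Flt4, both dim, lay on the same side. On the other side, Gls2 stood at 1.09-fold and Mlf2 at 1.12-fold. Gls2 did not stand apart from the top dose, with 1.11-fold the vehicle level at 0.07 mg/kg and 1.10-fold at 680 mg/kg. Its level over vehicle was 1.01, 0.963 and 0.987-fold at 0.69, 6.88 and 68 mg/kg. The limma adjusted p against the higher doses was 0.999 for each of these genes other than Lap3. Among the receptor targets, Cyp1a2 stood at 0.975-fold the mean of the higher doses, Cyp3a23-3a1 at 0.934-fold, Nqo1 at 0.915-fold and Cyp4a1 at 0.990-fold.

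**Figure D5:**
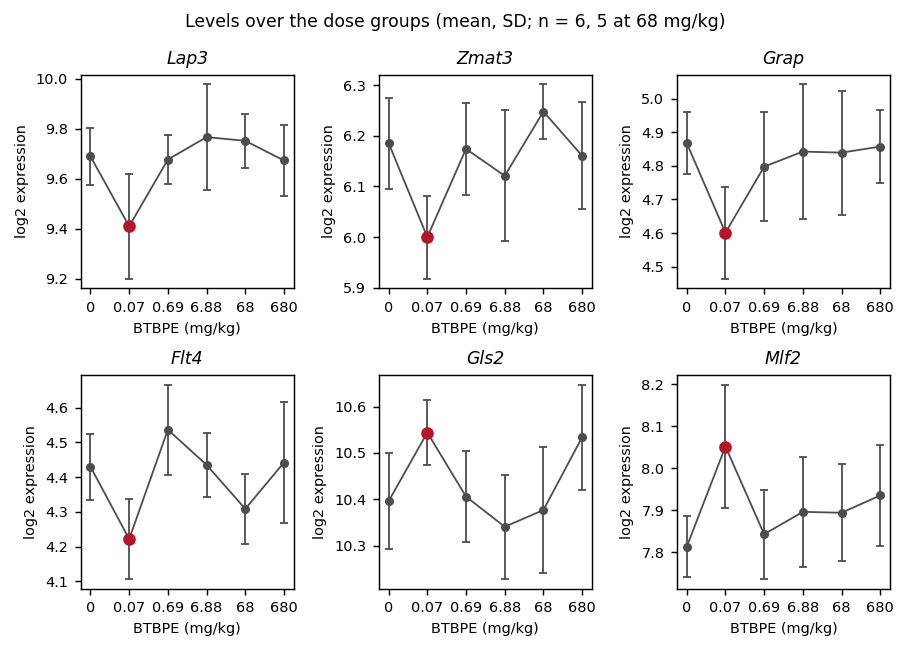
Mean log2 expression with SD of 6 genes over the dose groups from vehicle (0) to 680 mg/kg (n = 6, and 5 at 68 mg/kg), chosen after their values were seen. The red point marks 0.07 mg/kg, which is lowest of the 6 groups for Lap3, Zmat3, Grap and Flt4 and highest for Gls2 and Mlf2, and the dose axis is not to scale.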

How the data were processed

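Liver RNA of 35 rats was hybridised to single-colour Affymetrix 3 prime arrays, 100 ng per sample and with an integrity number of at least 7.0 per the labels' protocols. The values that the authors deposited are log2 expression per probe set, made with RMA and the affy package per the submitters' processing notes. Their versions were not stated, and log base 2 was taken from the usual RMA output. RMA forces near-equal distributions, which reduces a shift shared by most transcripts, and shrinks differences of dim probe sets. A hybridisation signal has no read depth, and precision is limited by how many arrays each group holds.

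Of 31099 probe sets, 57 array controls were left out and 31042 were tested without further normalisation or filtering. Genes were named from the platform annotation, checked against RefSeq GRCr8 by gene identifier: 20826 probe sets had 1 symbol, 436 several and 9780 none, and only the first were named. Each gene was represented by its brightest probe set on average.

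A one-way model over all 35 arrays was fitted with limma 3.58.1 in R 4.3.3, with contrasts of 0.07 mg/kg against vehicle and against the higher doses. P-values were adjusted by Benjamini-Hochberg per contrast and called under 0.05. It stands in for the R/maanova analysis (5% false discovery rate) that the study design states. The fit was tested on simulated data. The 31 gene lists were given by counts and medians. The comparison and the gene lists were chosen with earlier results of these data known. Named genes were the first 2 measured and the 2 with the smallest p of each response list, 1 and 2 of each marker list, the 10 with the smallest p in each direction with a mean at or above the lowest array median, and the 10 such genes with the largest difference among those whose groups did not overlap. Genes with a group mean below that median are given by values in place of a fold. List members named beside these with a fold alone, and genes stated as such, were chosen after their values were seen. The fit was repeated without dim probe sets, on values quantile-normalised once more or centred by array median, with replicate number as a block, with another variance prior, with array weights, with no moderation, with 1 probe set per gene, on the 12 arrays alone, and without each array in turn.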

Additional observations from a re-analysis of the deposited data

Results flagged for a closer look

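Each group of 6 rats was searched for a single rat that stood apart, by the gap to its nearest neighbour over the group's whole range (Dixon's test at the 95% level). Of 340 groups of values, those of the named genes, the list means and the beta-actin measure of RNA degradation together, 41 had such a rat. In unselected values chance gives about 1 in 20 groups. Many of these genes were named for a small p, for groups that did not overlap or for a wide spread, so that rate does not hold here. List means also share genes with the named genes. Every value below is a log2 level, or for a list its mean deviation in log2 units from all 35 arrays.

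Dosed replicate 5 stood apart most often, for 8 genes. It was low for Bcl6 at 5.81 (other dosed rats 9.21 to 10.10), Cyp7a1 at 9.39, Lpin1 at 6.85 and Stau2 at 5.14, and high for Bhlhe40 at 6.82 (others 4.84 to 5.36), Cyp1a1 at 4.63, Cps1 at 12.91 and Zfp628 at 6.72. Dosed replicate 1 was low for Serpinb9b at 3.53 (others 7.41 to 8.59) and high for the ER stress list at 0.123 and the acute phase list at 0.0931. Dosed replicate 3 was low for Insig1 at 9.90 and high for Fbp1 at 12.30. Dosed replicate 4 was low for Hr at 3.49. Dosed replicate 6 was low for Wfdc3 at 5.58 and high for the cholangiocyte list at 0.430 (others -0.10 to 0.05).

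Among vehicle rats, replicate 3 was low for Ugt2b at 4.34 (others 12.33 to 12.72), Mx1 at 3.99, Mx2 at 4.50 and Scn10a at 4.89, and for the list means of the interferon response at -0.442 and macrophage markers at -0.268. Replicate 4 was low for Sqle at 8.21, Cyp8b1 at 10.08 and the bile acid list at -0.143, and high for Id1 at 7.10 and Hamp at 12.72. Replicate 5 was low for Alb at 14.23, Gps2 at 6.01, Zfp628 at 6.08 and Cxcr2 at 2.9, and high for the periportal list at 0.123. Replicate 6 was low for S100a8 at 3.66 and the NRF2 list at -0.205, and high for Prss1 at 3.47 and Asb5 at 5.18. Replicate 1 was low for Slc44a4 at 4.29 and high for Csf3r at 3.06 and the immediate early list at 0.331. Replicate 2 was high for Bub1b at 3.90 and Fos at 4.38.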

How the results depend on the processing

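No setting called a probe set between 0.07 mg/kg and vehicle: the count was 0 in each of 21 alternatives, 12 of which left out 1 array each, and the smallest adjusted p in limma over them was 0.324, with array weights. Counts at an unadjusted p under 0.05 ran from 396, with dim probe sets left out and 15683 tested, to 1362 without dosed replicate 5. Against the higher doses, each alternative run also gave 0 calls, with a smallest adjusted p of 0.0878 against 0.69 mg/kg with array weights. With arrays centred on their medians, 704 probe sets were higher and 441 lower at an unadjusted p under 0.05. The replicate numbers gave no clear sign of a pairing. Correlations of same-numbered deviations ran from -0.114 to 0.129, and 2 of 6 dosed rats correlated best with the vehicle rat of their own number. These values have no reference to be set against, so they cannot settle whether the numbers mark pairs. With the replicate number as a block, 0 probe sets were called and 1114 had an unadjusted p under 0.05.

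The difference in the 3 prime to 5 prime beta-actin measure, 0.06 log2 units, ran from 0.04 to 0.08 over its alternatives. Of 138 named genes 118 kept their sign in every setting. The other 20 were Nqo1, Cyp4a3, Sqle, Idi1, Acaca, Cyp7a1, Dio1, Pck1, Fbp1, Mx2, Bmal1, Per1, Alb, Cps1, Lrat, Hbb, S100a8, Ugt2b, Hamp and Atoh8. List medians kept their sign for 16 of 31 lists, those of CAR and PXR, PPAR-alpha, cholesterol, bile acid, fasting, macrophage and endothelial genes among them, and the macrophage median ran from -0.27 to -0.12 when single arrays were left out. The median of the kidney and adrenal list was -0.36 with dim probe sets left out, where 1 member remained, against 0.02 over all 8.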

Other observations

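A few more genes were looked up after the values of Id1 and Smad6 were seen, so their levels are a description and give no result on a group of genes. Smad7, the other inhibitory SMAD, lay between 6.60 and 6.83 (median 6.73) in 0.07 mg/kg rats and between 6.57 and 7.27 (median 6.77) in vehicle rats, at 0.907-fold (95% interval 0.749 to 1.10), with all 6 dosed rats below the vehicle mean and 1 of its 2 other probe sets opposite in sign. Id2 stood at 0.905-fold (95% interval 0.758 to 1.08) and Id3 at 0.888-fold (95% interval 0.676 to 1.17). Hamp, the iron hormone hepcidin, lay between 12.01 and 12.70 (median 12.32) in 0.07 mg/kg rats and between 12.27 and 12.72 (median 12.37) in vehicle rats, at 0.964-fold (95% interval 0.691 to 1.34). Atoh8, a transcription factor upstream of hepcidin, stood at 0.979-fold (95% interval 0.852 to 1.12). The log2 difference of Hamp was -0.05 and reached 0.01 without dosed replicate 2 or without vehicle replicate 4, and that of Atoh8 was -0.03 and reached 0.01 without dosed replicate 5. None of these genes was called by limma (adjusted p 1.00 for each). Against the mean of the higher doses, Id1 stood at 0.848-fold and Smad6 at 0.941-fold.

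Genes of protein synthesis and respiration lay close to vehicle. Cytosolic ribosomal protein genes had 7 of 34 members higher and 27 lower, with a median log2 difference of -0.03, and respiratory chain subunits had 46 of 80 higher and 34 lower, with a median of 0.01. For all 34 ribosomal and all 80 respiratory chain genes the 95% interval of the limma fit left out a 1.5-fold change. At 0.69, 6.88, 68 and 680 mg/kg, 31, 10, 20 and 32 of the 34 ribosomal genes lay below the same vehicle rats.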
